A study of Homo sapiens with 4 samples.

Results

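A set of 10 genes that encode components or partners of the basement membrane were followed on 4 arrays: the collagen IV chains COL4A1 and COL4A2, the laminin chains LAMA5, LAMB1 and LAMC1, the linkers NID1, HSPG2 and AGRN, the matricellular protein SPARC and the heparan sulfate proteoglycan GPC3. They were chosen because several of them were lower at 12 hr in both lines, so their 12 hr over 0 hr values are a description and carry no test. The platform annotation gave these 10 genes 12 probes, among 24459 probes and 18639 named genes in all. Of the 10, 9 were detected on all 4 arrays, and HSPG2 was detected on 1.

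The RNA came from transgenic HEK293 cells, which derive from human embryonic kidney and grow without limit. One line carried LGP2-4KR (here 4KR) and the other LGP2, a helicase that binds double-stranded RNA in the antiviral response. The labels do not say what 4KR stands for, nor whether each line was 1 clone. Each line was sampled 12 hr after short poly I:C, an artificial low-molecular-weight mimic of viral double-stranded RNA, was put into the cells with Lipofectamine at 100 ng/ml, and at 0 hr without stimulation. Every one of the 4 groups (4KR 12 hr, 4KR 0 hr, LGP2 12 hr, LGP2 0 hr) was 1 single-colour array, so no difference below has a replicate, a standard error or a p-value, and the number of arrays limits the precision. All cells carried a transgene and all 12 hr cells were transfected, so an effect of poly I:C cannot be told apart from one of transfection or of 12 hr in culture.

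A basement membrane is the thin sheet of matrix on which epithelial, endothelial and other cells rest. Laminins, each an assembly of an alpha, a beta and a gamma chain, polymerise at the cell surface, collagen IV forms a covalently linked network, and nidogen, perlecan (HSPG2) and agrin tie the networks to each other and to heparan sulfate. LAMA5, LAMB1 and LAMC1 encode the chains of laminin-511, and COL4A1 and COL4A2 encode the chains of the most widespread collagen IV molecule, which needs both. The collagen IV pair is transcribed in opposite directions from neighbouring start sites.

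The stretch between those start sites, 127 bases apart in the RefSeq promoter table (build GRCh38.p14), is shown because both genes of the pair were lower at 12 hr, beside the 250 bases upstream of SPARC, LAMB1 and LAMC1. Capitals mark matches on either strand to the GC box GGGCGG, to CCAAT or to TATAAA. They would also mark GAAANNGAAA, the core of an interferon-stimulated response element. The stretch of the collagen pair is chr13:110307158-110307283 on the strand of COL4A2, that of SPARC chr5:151686916-151687165 (minus strand), that of LAMB1 chr7:108003162-108003411 (minus strand) and that of LAMC1 chr1:183023170-183023419 (plus strand).
COL4A1-COL4A2: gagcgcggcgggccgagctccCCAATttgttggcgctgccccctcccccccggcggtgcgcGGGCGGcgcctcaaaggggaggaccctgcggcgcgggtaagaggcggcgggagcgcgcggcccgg
SPARC: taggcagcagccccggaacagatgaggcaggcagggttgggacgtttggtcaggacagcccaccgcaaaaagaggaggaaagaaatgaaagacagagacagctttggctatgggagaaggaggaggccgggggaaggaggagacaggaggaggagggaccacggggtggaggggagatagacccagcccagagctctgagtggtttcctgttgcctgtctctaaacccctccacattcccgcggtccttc
LAMB1: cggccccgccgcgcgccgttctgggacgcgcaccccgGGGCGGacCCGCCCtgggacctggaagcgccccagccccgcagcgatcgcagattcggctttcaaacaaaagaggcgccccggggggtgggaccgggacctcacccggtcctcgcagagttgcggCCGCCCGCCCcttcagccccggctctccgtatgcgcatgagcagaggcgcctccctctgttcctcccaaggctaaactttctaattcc
LAMC1: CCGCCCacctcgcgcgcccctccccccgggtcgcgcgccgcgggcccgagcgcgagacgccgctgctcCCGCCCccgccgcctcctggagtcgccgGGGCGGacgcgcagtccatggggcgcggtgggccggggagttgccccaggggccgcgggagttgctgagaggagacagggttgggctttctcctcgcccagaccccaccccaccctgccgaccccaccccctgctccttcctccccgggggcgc
The collagen stretch held 1 GC box and 1 CCAAT, LAMB1 held 4 GC boxes (a pair of them overlapping) and LAMC1 held 3, while SPARC held none of the motifs. Promoter windows, from 250 bases before to 50 after the start, were found for 8 of the 10 genes, all but GPC3 and AGRN. A GC box lay in 7 of these 8 windows, against 44.6% of 27305 promoters, and CCAAT in 3 of 8, against 35.7%. The COL4A1 and COL4A2 windows overlap, so their shared CCAAT and intergenic GC box are counted for both. TATAAA and GAAANNGAAA lay in 0 of 8 windows, against 12.0% and 3.65% of all promoters. The median GC content of the 8 windows was 77.2%, against 58.3% over all promoters. A match or its lack describes the letters of these windows and says nothing of binding.

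At 12 hr, 7 of the 10 genes counted in 4KR cells were at least 1.3-fold lower, as were the same 7 of the 9 counted in LGP2 cells: COL4A1, COL4A2, LAMA5, LAMB1, LAMC1, SPARC and GPC3. Of all genes counted, 3.19% were lower by that much in 4KR cells, 2.94% in LGP2 cells and 1.37% in both lines; since the genes were chosen on this contrast, nothing is read from the difference. In both lines 6 of the 7, all but LAMC1, were at least 1.5-fold lower, as were 0.429% of genes in 4KR cells, 0.51% in LGP2 cells and 0.0859% in both. With the offset of 50 none reached 2-fold, as did 0.00604% of genes in 4KR cells and 0.012% in LGP2 cells. This count depended on the processing: with plain subtraction LAMB1, SPARC, COL4A2, LAMA5 and GPC3 passed 2-fold in 4KR cells (-1.23 to -1.01) and SPARC in LGP2 cells (-1.08). HSPG2, detected on 1 array, also passed there in 4KR cells, but its signal was close to the blank level, so nothing is read from this. In 4KR cells LAMB1 (-1.11) and SPARC (-1.04) also passed with an offset of 16, and LAMB1 (-1.06) in the deposited table. The share of all genes past 2-fold is not given for these alternatives, so nothing is read from which members passed. Plain subtraction put 2041 genes past 1.3-fold lower in 4KR cells, against 528 as reported. In the reported processing no member was 1.3-fold higher, as were 4.56% of genes in 4KR cells, 5.04% in LGP2 cells and 3.14% in both. The median log2 ratio of the 9 genes was -0.73 in 4KR cells and -0.66 in LGP2 cells, against a median of -0.01 over all genes in each line. In bulk RNA, fewer cells that express a gene and less of its RNA per cell cannot be told apart.

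Intensities below were taken from the deposited table. Its values have the blank level subtracted and a median of 25 per array. Log2 ratios come from arrays normalized together with an offset of 50, which shrinks the ratios of dim genes. Levels of different genes are not compared, because each probe has its own brightness.

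Both collagen IV chains of the set were lower at 12 hr in both lines. COL4A1, the alpha1 chain, had an intensity of 104.6 at 12 hr and 175 at 0 hr in 4KR cells, and of 115.7 at 12 hr and 184.1 at 0 hr in LGP2 cells. Its log2 ratios were -0.73 in 4KR and -0.75 in LGP2 cells. COL4A2, the alpha2 chain, had 2 probes. The brighter had 60.4 at 12 hr and 121.6 at 0 hr in 4KR cells, and 74.8 at 12 hr and 140.2 at 0 hr in LGP2 cells, with a log2 ratio of -0.90 in each line. The dimmer had 22.9 at 12 hr and 41.3 at 0 hr in 4KR cells, and 26.1 at 12 hr and 37.2 at 0 hr in LGP2 cells, with log2 ratios of -0.56 and -0.41. The COL4A2 probes thus had the same direction with different sizes, and their mean was -0.73 in 4KR and -0.65 in LGP2 cells.

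The 3 chains of laminin-511 were all lower at 12 hr. LAMB1, the beta1 chain, had an intensity of 66.4 at 12 hr and 138.5 at 0 hr in 4KR cells, and of 82.4 at 12 hr and 134.5 at 0 hr in LGP2 cells. Its log2 ratio of -0.96 in 4KR cells was the lowest of the 10 genes in either line, and that in LGP2 cells was -0.75. LAMA5, the alpha5 chain, had 60.1 at 12 hr and 109.5 at 0 hr in 4KR cells, and 82.5 at 12 hr and 124.5 at 0 hr in LGP2 cells, with log2 ratios of -0.79 and -0.66. LAMC1, the gamma1 chain that most laminins share, had 25.3 at 12 hr and 43.3 at 0 hr in 4KR cells, and 30.8 at 12 hr and 43.9 at 0 hr in LGP2 cells. Its log2 ratios were -0.53 and -0.44. In the deposited table, with no offset, LAMC1 was at -0.78 in 4KR and -0.51 in LGP2 cells, and LAMA5 at -0.87 and -0.59. Each of the 3 chains was thus lower at 12 hr within each line, which is the contrast that the set was chosen on.

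**Figure D1:**
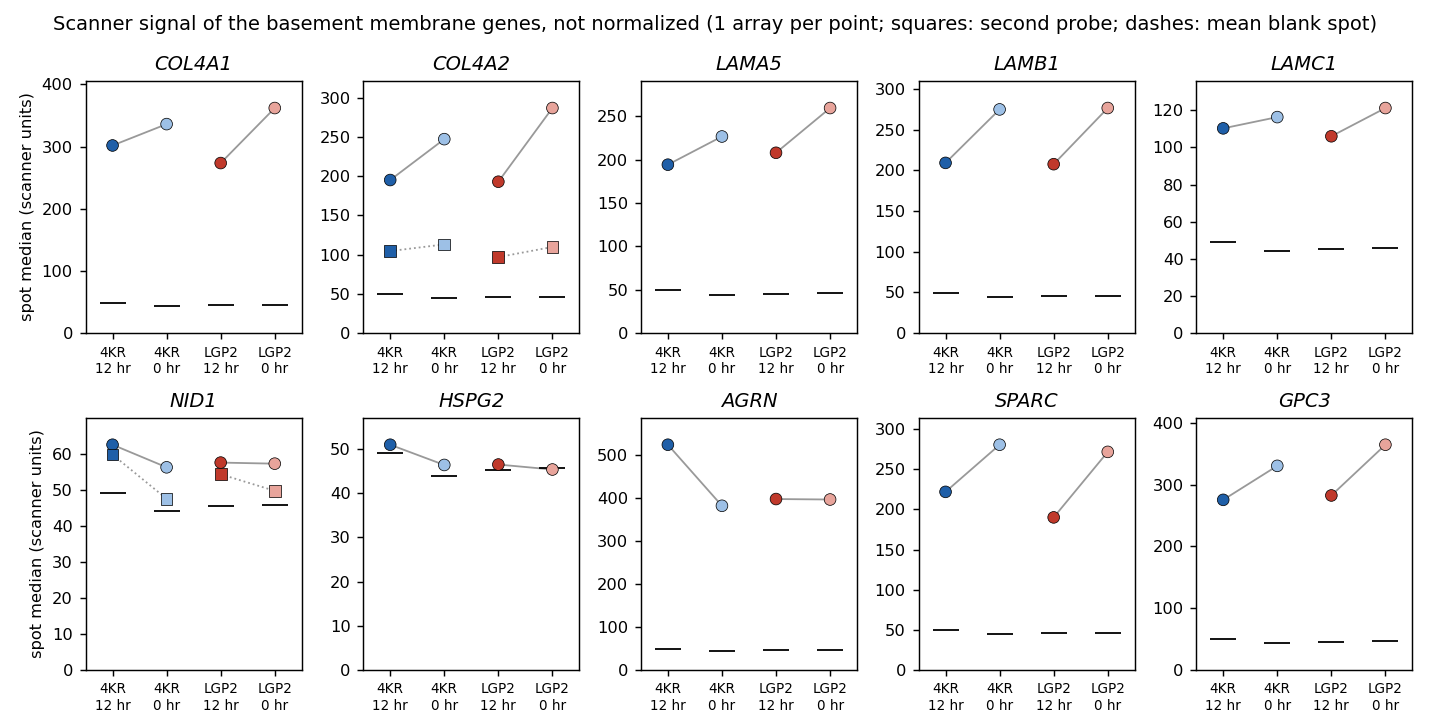
Spot medians in scanner units (vertical axis, linear, from 0) of the 10 genes on the 4 arrays, before any normalization. Points are single arrays, squares a second probe of the same gene, dashes the mean blank spot of the array, and lines join 12 hr to 0 hr within a line; the 8 probes of the 7 genes that were lower lie lower at 12 hr than at 0 hr in both lines, while HSPG2 lies close to the blank level.

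SPARC and GPC3 were also lower at 12 hr within each line. SPARC, a secreted collagen-binding glycoprotein that is known to act in the handling of collagen IV, had an intensity of 71.6 at 12 hr and 141.9 at 0 hr in 4KR cells, and of 73.4 at 12 hr and 131.6 at 0 hr in LGP2 cells. Its log2 ratios were -0.90 and -0.84, the lowest of the 10 genes in LGP2 cells. GPC3, glypican-3, a cell-surface heparan sulfate proteoglycan held by a lipid anchor rather than a structural part of the sheet, had 93.7 at 12 hr and 171.6 at 0 hr in 4KR cells, and 120.2 at 12 hr and 185.6 at 0 hr in LGP2 cells. Its log2 ratios were -0.83 and -0.72. The set was chosen because several of its genes were lower in both lines, so nothing is read from the order of the arrays.

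The genes of the linking proteins gave smaller or no measurable differences. AGRN, agrin, had an intensity of 196.2 at 12 hr and 201.9 at 0 hr in 4KR cells, and of 178.2 at 12 hr and 203.7 at 0 hr in LGP2 cells. Its log2 ratios were -0.14 in 4KR and -0.35 in LGP2 cells, short of 1.3-fold in both. In LGP2 cells AGRN passed 1.3-fold lower with plain subtraction of the blank (-0.40) and with an offset of 16 (-0.38). In scanner units, before normalization, AGRN read 522.8 at 12 hr and 381.0 at 0 hr in 4KR cells, and 396.6 at 12 hr and 395.6 at 0 hr in LGP2 cells, so its direction in 4KR cells depended on the scaling between arrays (log2 ratio 0.43 without normalization). NID1, nidogen-1, which bridges laminin and collagen IV, was dim, and its 2 probes disagreed. One had 5.6 at 12 hr and 7.3 at 0 hr in 4KR cells, and 6.2 at 12 hr and 6.7 at 0 hr in LGP2 cells, and the other, annotated to a genomic record rather than a transcript, had 4.4 at 12 hr and 2.1 at 0 hr in 4KR cells, and 4.6 at 12 hr and 2.31 at 0 hr in LGP2 cells. Its mean log2 ratio over both probes, -0.02 in 4KR and -0.03 in LGP2 cells, gives no direction. HSPG2, perlecan, had an intensity of 1.5 in 4KR cells at 0 hr and was not well above background on the other arrays, so no ratio is given.

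**Figure D2:**
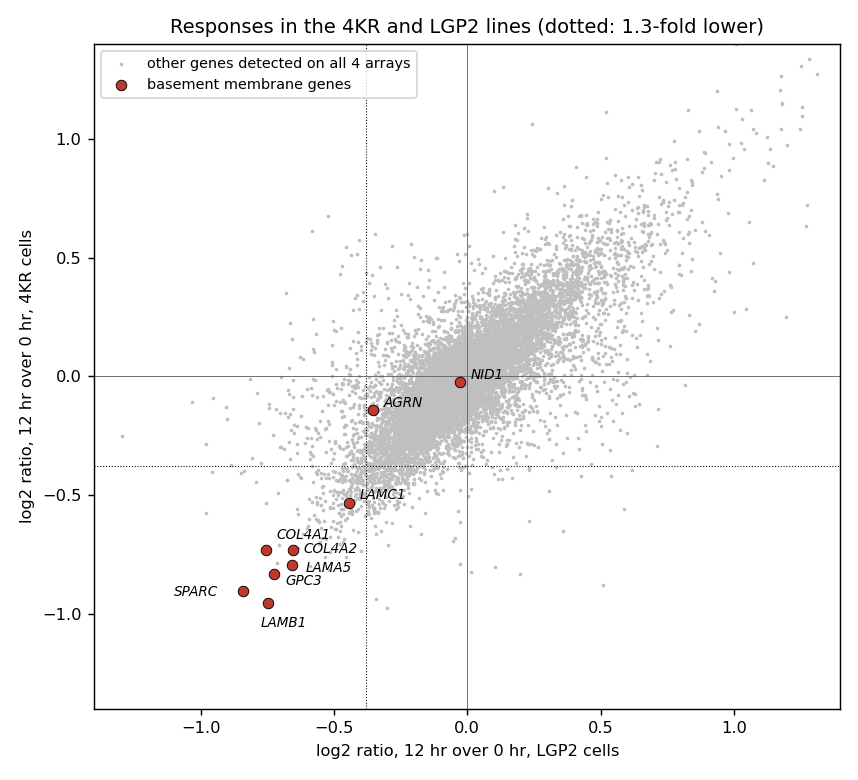
Log2 ratio of 12 hr over 0 hr in LGP2 cells (horizontal axis) against that in 4KR cells (vertical axis) for genes detected on all 4 arrays, within 1.4 of 0 on each axis, with dotted lines at 1.3-fold lower. The 7 genes lower in both lines sit in the lower left, from -0.44 to -0.84 in LGP2 cells and from -0.53 to -0.96 in 4KR cells, while AGRN and NID1 lie above the dotted lines.

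The direction of the 7 genes was also read before normalization. The set was chosen for low values on these same arrays, so this is a description and not independent support. In scanner units all 8 probes of the 7 genes were lower at 12 hr in both lines. Over all genes detected on the 4 arrays the scanner signal was lower at 12 hr for 0.966% in 4KR cells (152 of 15738) and 9.51% in LGP2 cells. Without normalization between arrays all genes had a median log2 ratio of 0.27 in 4KR and 0.12 in LGP2 cells. That of the 9 basement membrane genes was then -0.25 in 4KR and -0.37 in LGP2 cells. Only LAMB1 then stayed past 1.3-fold in both lines, at -0.41 in each, and it was the 1 gene of all genes counted to do so. In the deposited table all genes had a median of 0.15 in 4KR and 0.25 in LGP2 cells. There the same count of 7 genes was lower by 1.3-fold in both lines, against 0.996% of all genes counted. Relative to the median of all genes, each of the 7 was lower in both lines under all 7 ways of processing, with log2 values between -1.21 (LAMB1 in 4KR cells) and -0.32 (LAMC1 in LGP2 cells).

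**Figure D3:**
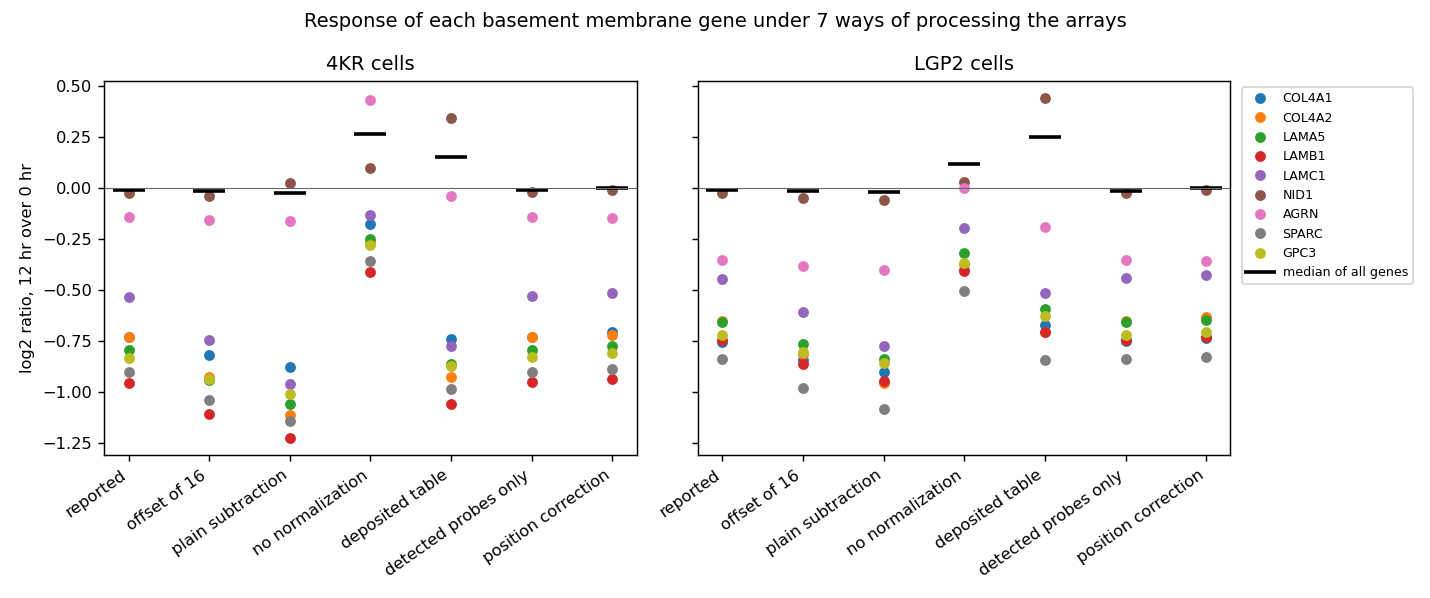
Log2 ratio of 12 hr over 0 hr (vertical axis) of the 9 detected genes under the reported processing and 6 alternatives (horizontal axis), in 4KR cells (left) and LGP2 cells (right), with black bars for the median of all genes. Collagen IV, laminin, SPARC and GPC3 lie below the bar in every column, and AGRN lies above it in 4KR cells without normalization, at 0.43.

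The ratios were also placed among those of genes of like brightness, as a description only, since the genes were chosen for low ratios. Genes detected on all arrays were split into 10 equal bins by mean level. The median ratio of the bins ran from -0.05 to -0.01 in 4KR cells and from -0.04 to -0.0031 in LGP2 cells. The share of genes 1.3-fold lower differed more, and was 0% in the dimmest bin in both lines. It was 6.48% in 4KR and 5.97% in LGP2 cells in bin 8, which holds SPARC, LAMA5 and LAMB1. In bin 9, with COL4A1, GPC3 and AGRN, it was 10.4% and 9.72%, above the shares over all genes. Within its own bin of about 1574 genes, SPARC had 0.127% of genes at or below its ratio in 4KR cells and 0.254% in LGP2 cells. The corresponding shares were 0.0635% and 0.445% for LAMB1, 0.508% and 0.254% for COL4A1, and 0.254% and 0.762% for LAMC1. AGRN, in the same bin as COL4A1, had 33.4% and 11.6% of genes at or below it.

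**Figure D4:**
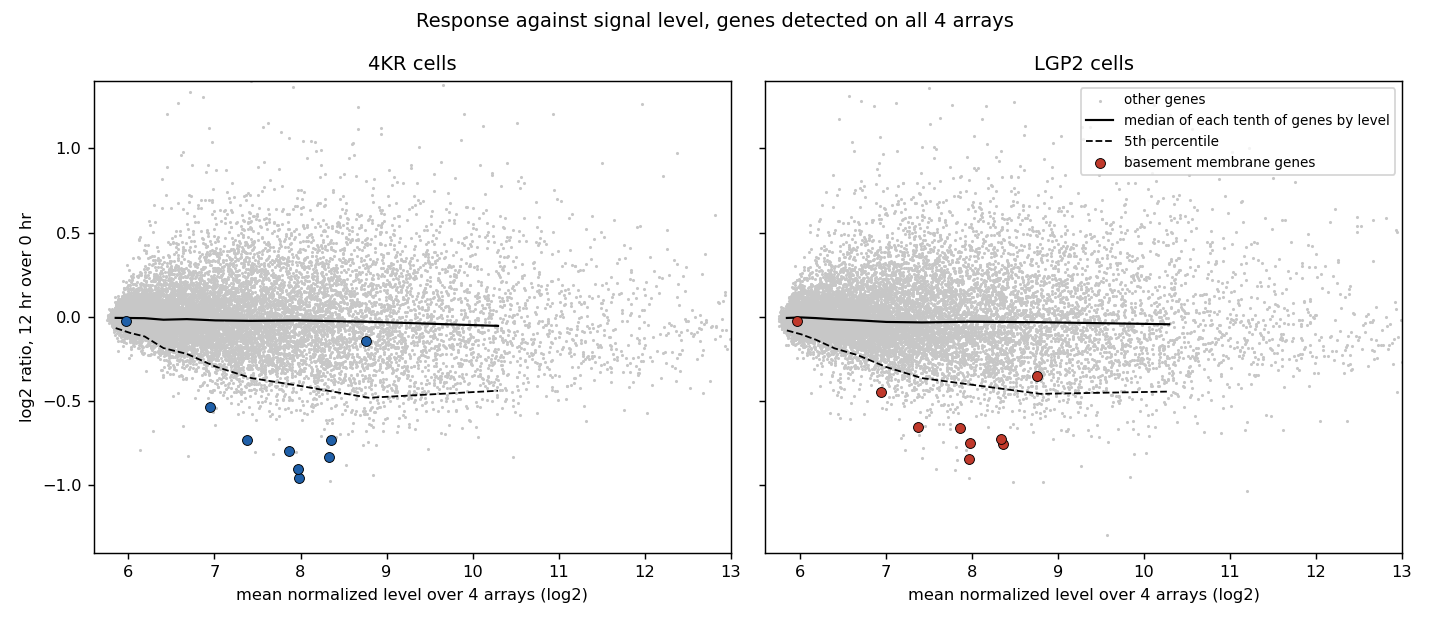
Log2 ratio of 12 hr over 0 hr (vertical axis) against the mean normalized log2 level over the 4 arrays (horizontal axis), in 4KR cells (left) and LGP2 cells (right). Grey points are genes detected on all arrays, the solid line joins the medians and the dashed line the 5th percentiles of 10 equal bins by level, and 7 of the 9 coloured basement membrane genes lie below the dashed line in both lines.

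As processed here, none of these genes was past 1.3-fold between the lines. At 0 hr the log2 ratio of 4KR over LGP2 cells ran from -0.12 for LAMA5 to 0.11 for SPARC, and 0 of 10 genes were past 1.3-fold in either direction, against 1.29% of genes lower and 0.434% higher. At 12 hr it ran from -0.26 for LAMA5 to 0.22 for AGRN, and 0 of 9 were past 1.3-fold, against 0.358% lower and 0.211% higher. The response in 4KR less that in LGP2 cells ran from -0.21 for LAMB1 to 0.21 for AGRN, with a median of -0.08, and 0 of 9 were past 1.3-fold, against 1.4% lower and 1.59% higher. Without normalization AGRN was past 1.3-fold higher in this difference (0.43) and in 4KR over LGP2 cells at 12 hr (0.39), and in the deposited table LAMA5 was past it lower at 12 hr (-0.46). The responses of COL4A1 differed by 0.02 and those of SPARC by -0.06. The median of these differences changed sign with scaling: it was 0.09 with no scaling of the arrays, against 0.13 for all genes, and -0.22 in the deposited table. Relative to all genes it stayed between -0.14 and -0.05. These comparisons share arrays, and with 1 array per group no size can be set against replicate spread.

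Other basement membrane genes are given for their own values. Their lists were chosen with earlier results of these data known. Up to 4 genes per list are named, by the largest absolute mean of both responses. Among other laminin chains, 1 of 7 counted, against 1.37% of all genes, was at least 1.3-fold lower in both lines: LAMA4, the alpha4 chain, with intensities of 100.6 at 12 hr and 165.9 at 0 hr in 4KR cells, and of 142.6 at 12 hr and 179.8 at 0 hr in LGP2 cells (log2 ratios -0.71 and -0.48). LAMB3, LAMC3 and LAMA1 had ratios between -0.19 and -0.08, and the 7 had medians of -0.08 in 4KR and -0.10 in LGP2 cells. Of the other collagen IV chains, COL4A5 was at -0.31 in 4KR and -0.40 in LGP2 cells and COL4A4 at -0.04 and -0.03. The list medians were -0.06 and -0.17, and 0 of 3 counted were lower in both lines, against 1.37% of all genes. Among 13 further basement membrane components, 1 was lower in both lines, against 1.37% of all genes. This was COL18A1, the source of endostatin, at -0.41 and -0.40. NID2, the second nidogen, was at -0.34 and -0.29, FBLN1 at -0.22 and -0.20 and NTN4 at -0.13 and -0.15. The medians of these components were -0.14 in 4KR and -0.07 in LGP2 cells.

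The other glypicans and syndecans had medians of -0.10 in 4KR and -0.05 in LGP2 cells. Of these 9, 0 were lower in both lines and 1 was higher, against 1.37% and 3.14% of all genes. The 1 higher was SDC4, syndecan-4, a cell-surface proteoglycan of focal adhesions. Its intensity was 32.9 at 12 hr and 9.4 at 0 hr in 4KR cells, and 28.2 at 12 hr and 10.9 at 0 hr in LGP2 cells, with log2 ratios of 0.64 and 0.43. The SDC4 probe lies in block 24 of the array, as does that of ITGB1. GPC4, glypican-4, was at -0.28 and -0.16, against -0.83 and -0.72 for GPC3. SDC2 and GPC1 were at -0.39 and -0.20 in 4KR cells, and -0.28 and -0.17 in LGP2 cells. Among 5 SPARC relatives, with medians of -0.12 and -0.10, 1 was lower in both lines, against 1.37% of all genes. This was FSTL1, at -0.40 and -0.45, while SMOC1 was at -0.25 and -0.03, SPOCK2 at -0.12 and -0.11 and SPOCK1 at -0.08 and -0.10.

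Enzymes and chaperones that fold and export collagen had a median of -0.20 in 4KR and -0.21 in LGP2 cells. Of 19, 2 were 1.3-fold lower in both lines, against 1.37% of all genes. The 2 were PPIB, a prolyl isomerase of the endoplasmic reticulum, at -0.51 and -0.47, and P3H1, a prolyl 3-hydroxylase, at -0.45 and -0.39. SERPINH1, the collagen chaperone HSP47, was at -0.34 and -0.46, and PLOD2, a lysyl hydroxylase, at -0.32 and -0.37. Of 13 counted receptors for basement membranes, 0 were lower by 1.3-fold in both lines, against 1.37% of all genes. The medians of the receptors were -0.19 and -0.14. ITGB1, the beta1 integrin subunit, was at -0.25 in 4KR and -1.29 in LGP2 cells, and its probe is in block 24. Median log2 values of that block deviated by 0.07 on the LGP2 array and -0.04 on the 4KR array at 0 hr, and their part in the result was not tested. ITGAV was at -0.19 and -0.43, ITGA2 at -0.29 and -0.28, and ITGA1 at -0.21 and -0.28. None of the 12 probes of the basement membrane genes lies in block 24, and the block shifts at their positions were at most 0.0149.

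Matrix proteases, sulfatases and their inhibitors had medians of -0.03 in 4KR and -0.04 in LGP2 cells. Of 11 counted, 0 were lower in both lines, against 1.37% of all genes. SULF2, which trims heparan sulfate, was at -0.33 and -0.59, ADAMTS1, a secreted protease, at 0.48 and 0.21, TIMP1 at -0.35 and -0.22 and TIMP3 at -0.21 and -0.10. Genes of the interstitial matrix, the fibrous matrix outside basement membranes, had medians of -0.03 and -0.02. Of 15 counted, 1 was lower in both lines, against 1.37% of all genes. This was VCAN, versican, at -0.41 and -0.85, with its probe in block 24. FN1, fibronectin, was at 0.06 and 0.23, LOX at -0.19 and -0.09, and FBN2 at -0.10 and -0.13. Signs in these lists depended on scaling. Of the 31 named list genes below 0 in 4KR cells, 28 were above 0 without normalization, all but LAMA4, NID2 and TIMP1, and of these 28 only ITGB1 and ITGAV lay above the median of all genes there. In LGP2 cells 10 of 31 turned sign, of which GPC4, SMOC1 and LOX lay above that median. The interstitial collagens COL1A2 and COL6A3 were not well above background on any array.

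**Figure D5:**
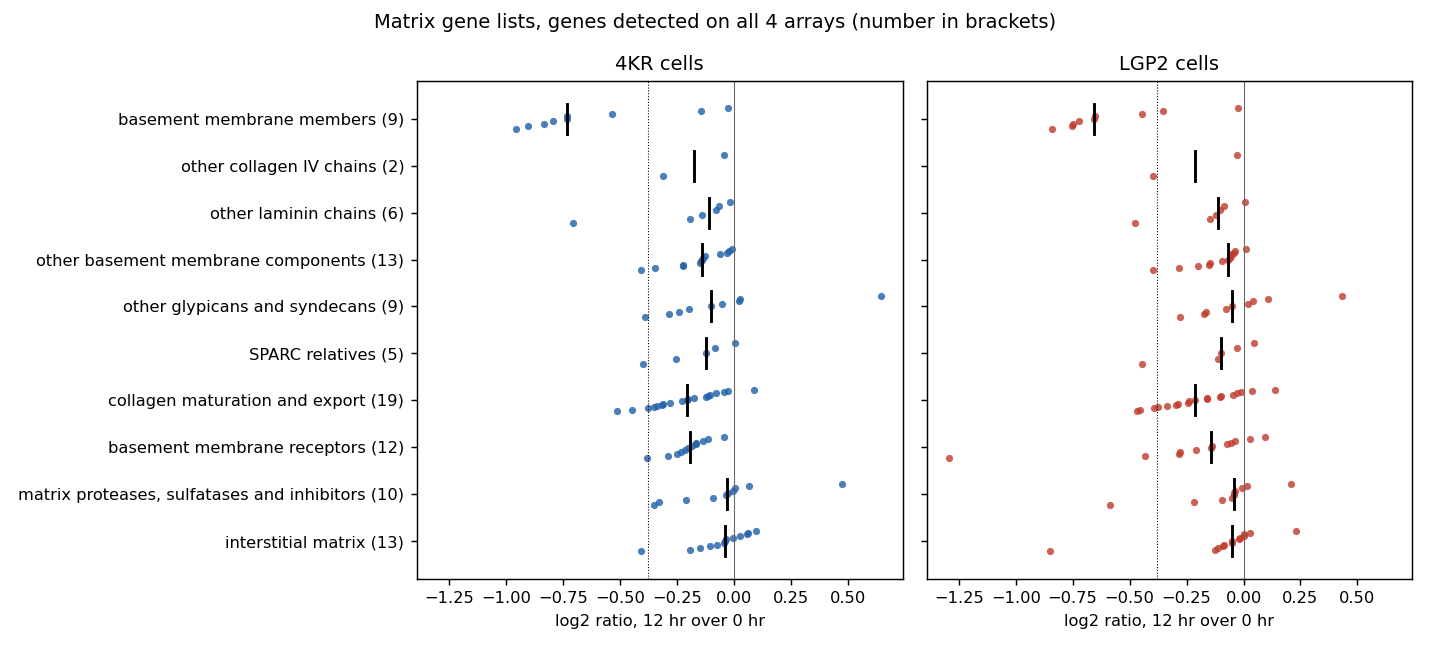
Log2 ratio of 12 hr over 0 hr (horizontal axis) of each gene detected on all 4 arrays, by list (rows, with the number of genes), in 4KR cells (left) and LGP2 cells (right); black bars are medians over the genes shown, and the dotted line is 1.3-fold lower. The medians of the 9 basement membrane genes, -0.73 and -0.66, were fixed in direction by how those genes were chosen, and single genes such as LAMA4 and ITGB1 stand apart from their rows.

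Genes listed as a check of stimulation were higher at 12 hr in both lines. Here too poly I:C cannot be told apart from transfection or time in culture. IFIT1, IFIT2, IFIT3, ISG15 and IFNB1 had log2 ratios between 4.05 and 7.08 in 4KR cells and between 4.06 and 6.58 in LGP2 cells. Of gene probes, 88.0% were detected at 12 hr and 83.8% at 0 hr in 4KR cells, and 89.2% at 12 hr and 83.2% at 0 hr in LGP2 cells. Of the markers listed for HEK293 cells, the 6 on the array, among them VIM, NEFL and PAX2, were detected on all 4 arrays, whereas the endothelial PECAM1 and TEK and the leukocyte PTPRC were detected on none. Of these HEK293 markers, NEFL, a neurofilament gene, was at -0.35 in 4KR and -0.40 in LGP2 cells, CDH2, N-cadherin, with its probe in block 24, at -0.20 and -0.78, and the other 4 between -0.17 and 0.0030, though all 6 were above 0 in 4KR cells without normalization; their part in the results was not tested. KDR and VWF, also endothelial, were detected on all 4 arrays and had log2 ratios between -0.09 and 0.04. Of the endothelial, fibroblast, epithelial and leukocyte markers counted, 0 were 1.3-fold lower in both lines.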

How the data were processed

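Per the labels' protocols, total RNA was amplified to amino allyl aRNA and coupled to a dye. The deposited scanner files hold, per the file headers, a linear median intensity for each spot. The series table deposited by the authors also holds intensities; its values match the scanner medians less roughly the blank mean, times a scale that sets each array's median to 25 (largest residual 0.0530). No genome build applies to these values.

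From the scanner intensities, log2 values were made by normexp (the mean of 384 blank spots as background, offset 50) and quantile normalization over the 4 arrays, in limma 3.58.1 under R 4.3.3. Probes of a gene were averaged. A probe was detected if above the blank mean by over 2 blank SDs. A gene was counted where the brighter array of a pair detected it; comparing responses needed all 4. The platform annotation named 21706 probes. The steps were tested on simulated data. The basement membrane genes, the 10 further lists and the rule for naming genes (up to 4 per list, by the largest mean of both responses) were chosen with earlier results of these data known. Alternatives are given at the end.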

Additional observations from a re-analysis of the deposited data

How the results depend on the processing

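Each group had 1 array, so no replicate could be left out. The 12 hr and 0 hr arrays were compared within each line, and with 1 array per group no paired test was possible. The median response of the 9 detected genes was -1.01 in 4KR and -0.86 in LGP2 cells when the blank was plainly subtracted, -0.93 and -0.81 with an offset of 16, and -0.25 and -0.37 without normalization between arrays, and it was -0.87 in 4KR cells in the deposited table. Without normalization 1 of the 9 was 1.3-fold lower in 4KR and 3 in LGP2 cells, and AGRN was 1.3-fold higher in 4KR cells. Under the other alternatives 7 were lower, or 8, with AGRN, in LGP2 cells with plain subtraction and with an offset of 16, and 1 (NID1) was higher in LGP2 cells in the deposited table. The median difference between the responses was 0.085 without normalization, where 1 of the 9 (AGRN) was 1.3-fold higher, and -0.22 in the deposited table. The median of 4KR over LGP2 cells at 12 hr, -0.10 as reported, was -0.17 with plain subtraction, 0.037 without normalization, where AGRN was 1.3-fold higher, and -0.25 in the deposited table, where 1 of the 9 (LAMA5) was 1.3-fold lower. The causes were not tested. All genes 1.3-fold lower numbered 528 in 4KR and 490 in LGP2 cells as reported, 2041 and 2046 with plain subtraction, 850 and 840 with an offset of 16, 8 and 56 without normalization, and 856 and 454 in the deposited table. Those higher numbered 756 and 841 as reported, 2517 and 2898, 1169 and 1250, 5756 and 2795, and 4188 and 5868 under the same alternatives. Using only probes detected on all 4 arrays, or correcting for position, left the medians at -0.73 and -0.72 in 4KR and -0.66 and -0.65 in LGP2 cells. Limits lie in single arrays and in dim signals, such as NID1 and HSPG2.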

Other observations

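In the reported processing 14 genes were at least 1.5-fold lower at 12 hr in both lines, 6 of them basement membrane genes, which were chosen on this contrast. The other 8, named here after their values were seen, were PDIA4, which helps form disulfide bonds in secreted proteins, at -0.79 in 4KR and -0.72 in LGP2 cells, NPC2, a lysosomal cholesterol-binding protein, at -0.71 in each line, TMT1A at -0.80 and -0.59, and MYH9, a non-muscle myosin heavy chain, at -0.72 and -0.63. Next were LOC101927469 at -0.66 and -0.62, PAK4, a kinase, at -0.64 and -0.60, PGM1, phosphoglucomutase 1, at -0.63 and -0.60, and ATP6AP2, a partner of the lysosomal proton pump, at -0.60 and -0.59. SPARC, LAMB1 and GPC3 had the lowest mean of both responses among the 14.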
